A study of Arabidopsis thaliana with 6 samples.

Results

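Mannans are wall polysaccharides with a backbone rich in mannose. In Arabidopsis thaliana, enzymes of the cellulose synthase-like A (CSLA) family build mannan and glucomannan chains in the Golgi from GDP-mannose and GDP-glucose. MSR1 and MSR2 (Mannan Synthesis Related) take part in that synthesis. TBL23, TBL24, TBL25 and TBL26 are members of the TRICHOME BIREFRINGENCE-LIKE family, which adds acetyl groups to wall polymers, and this group of relatives acts on mannan.

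The genes described here are 9 genes of mannan synthesis and acetylation, named by locus and found through the annotation of the array's probe sets. A probe set with a single gene was found for 4 of them, out of 13286 genes named on the array: CSLA01 (AT4G16590), TBL26 (AT4G01080), TBL23 (AT4G11090) and TBL25 (AT1G01430). Each had 1 probe set. CSLA01, TBL26 and TBL23 lie on chromosome 4 and TBL25 on chromosome 1. The other 5, CSLA02 (AT5G22740), CSLA09 (AT5G03760), TBL24 (AT4G23790), MSR1 (AT3G21190) and MSR2 (AT1G51630), had no probe set matched to them as a single gene and were not analysed here. Below, a gene counts as measured where a probe set was matched to it as a single gene. As 8730 of the 22746 probe sets carried no gene name here, a gene without a match may still be on the array. The genes were chosen by their place in mannan synthesis with the measured AmGSTF1 to Col0 differences of CSLA01 and TBL26 already in view, and in that sense were selected on these signals. Their values for that difference are therefore a description, and no p-value is given for any of the 4.

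RNA came from leaves of Arabidopsis of the ecotype Col0. One group carried the transgene AmGSTF1, which codes for a grass weed's glutathione transferase studied in this series for its part in herbicide resistance. The other group carried no transgene. Both groups had 3 arrays, described as biological replicates. In both groups, seeds had been kept for 72 hours at 4 °C before they were sown on compost, and plants grew at 20 °C with 16 hours of light. For every replicate, 10 leaves had floated for 4 hours on 0.1% Tween 20 with 0.1% acetone, and no herbicide is named. Plant age, the promoter of the transgene and the number of independent lines are not given in the sources used here.

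Values are MAS5 signals, 1 linear value per probe set summarised from its perfect-match and mismatch probes. The trimmed mean signal was 496 on every array. Differences were taken on log2(signal + 16) as AmGSTF1 minus Col0, and a probe set was called where limma's Benjamini-Hochberg adjusted p was under 0.05 over the 13647 probe sets bright enough to be tested. Of these, 292 were called higher and 396 lower, or 222 and 599 when each array was centred on its median. These counts hung on single arrays and on the model. There were 6 higher and 5 lower without Col0 replicate 1, 8 and 5 without Col0 replicate 3, 7 and 10 without AmGSTF1 replicate 1, and 107 and 144 without AmGSTF1 replicate 3. There were 603 and 530 without Col0 replicate 2 and 503 and 566 without AmGSTF1 replicate 2. A replicate block gave 40 and 38, and array weights 814 and 827, and the percentages of probe sets called moved with these counts. The dimmest 40% of probe sets on an array reached up to a signal of 68.7 to 84.5, depending on the array, and all 4 mannan genes were brighter than this on every array.

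CSLA01 and TBL26 were lower in AmGSTF1 leaves, at 25.3% and 42.1% of their mean Col0 signal. TBL23 was at 80.8% and TBL25 at 99.5%. In limma over all probe sets, 2 of the 4 genes were called lower and 0 higher, where 2.9% of all probe sets were called lower and 2.14% higher. CSLA01 and TBL26 are the 2 called. The AmGSTF1 arrays lay below all Col0 arrays for 3 of the 4, and above them for 0. Over all probe sets these shares were 13.1% and 14.5%. Since the genes were chosen with this comparison known, nothing is read from either count.

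CSLA01 is a glycosyltransferase of the family that makes mannan backbones. The Col0 arrays read 2875, 1904 and 2315 (replicates 1, 2 and 3, the order used throughout), and the AmGSTF1 arrays 403, 626 and 764. Every AmGSTF1 array was below every Col0 array, and the lowest Col0 signal was 2.49 times the highest AmGSTF1 signal. The log2 difference was -1.98 (SE 0.24), or 3.95-fold lower on that scale, and 5 of the 13647 probe sets tested had a larger fall. The spread between replicates was wide in the same gene, with an SD on the log2 scale of 0.30 in Col0 and 0.46 in AmGSTF1 (n = 3 each). Its SD within groups was larger than that of 86.3% of probe sets, and the lowest AmGSTF1 array, replicate 1, contributed most to it.

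TBL26 encodes 1 of the acetyltransferase-like proteins of the mannan group. The Col0 arrays read 15721, 13487 and 11153, and the AmGSTF1 arrays 5332, 6458 and 5194. The groups did not overlap, and the lowest Col0 signal was 1.73 times the highest AmGSTF1 signal. The log2 difference was -1.24 (SE 0.16), or 2.36-fold lower. Replicates were closer than for CSLA01, with an SD on the log2 scale of 0.25 in Col0 and 0.17 in AmGSTF1 (n = 3 each). In both genes Col0 replicate 1 had the highest signal.

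TBL23, a relative of TBL26, read 381, 391 and 325 on the Col0 arrays against 306, 266 and 315 on the AmGSTF1 arrays. Its groups were separated by a narrow margin, with the lowest Col0 signal 1.03 times the highest AmGSTF1 signal. The log2 difference was -0.29 (SE 0.15) and was not called. TBL23 also had the smallest spread of the 4, with an SD within groups of 0.13.

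TBL25, the other measured member of the acetylation group, read 852, 671 and 918 on the Col0 arrays against 826, 705 and 898 on the AmGSTF1 arrays. The groups overlapped throughout their range. The log2 difference was -0.0019 (SE 0.17), with a 95% interval of -0.37 to 0.37.

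**Figure D1:**
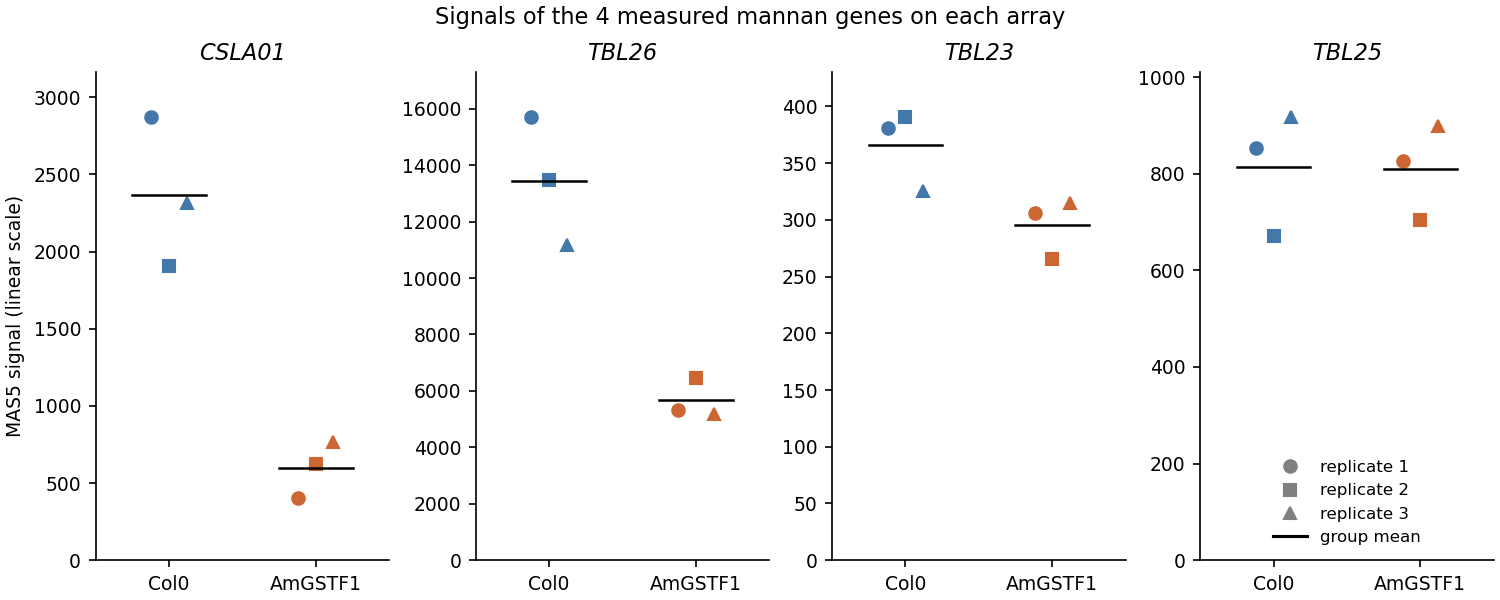
MAS5 signal (linear scale, each panel with its own axis from 0) of CSLA01, TBL26, TBL23 and TBL25 in Col0 and AmGSTF1 leaves; symbols are single arrays by replicate number and black lines are means of 3 arrays. The AmGSTF1 arrays of CSLA01 (403 to 764) and TBL26 (5194 to 6458) lie below all Col0 arrays, while those of TBL25 lie among them.

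**Figure D2:**
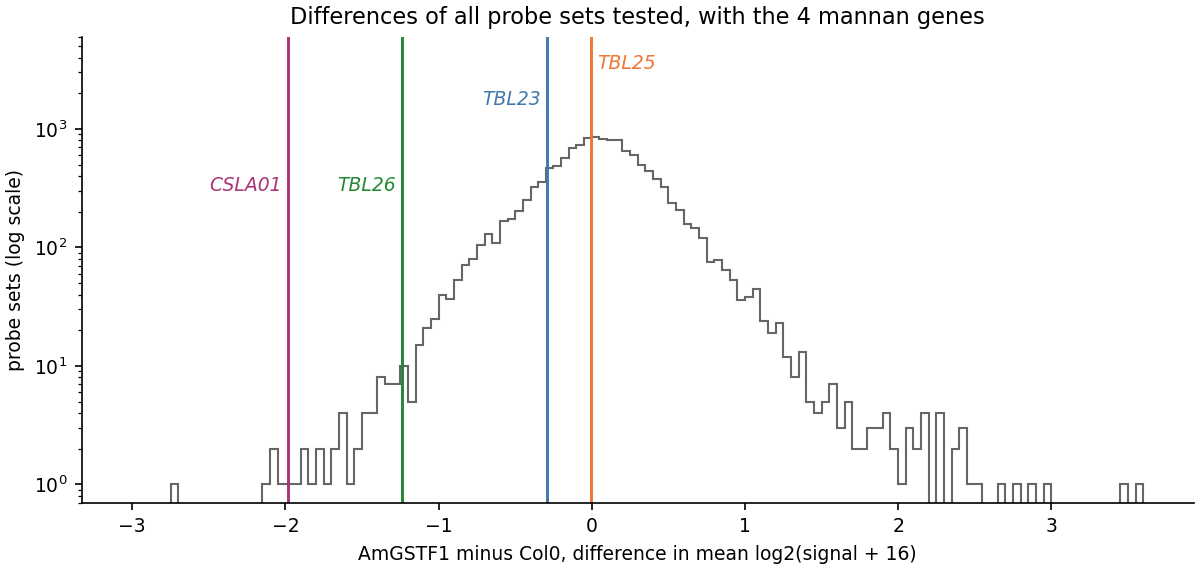
Number of probe sets (log scale) by difference in mean log2(signal + 16), AmGSTF1 minus Col0, for the 13647 probe sets tested, with vertical lines at the 4 mannan genes. CSLA01 at -1.98 and TBL26 at -1.24 lie in the lower tail, and TBL23 at -0.29 and TBL25 at about 0 in the bulk.

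The ratio of the plain signals of 2 genes on the same array does not depend on a scaling factor applied to a whole array, although the size of the ratio itself has no meaning across probe sets. The log2 ratio of TBL26 to TBL25 was 4.20, 4.33 and 3.60 on the Col0 arrays and 2.69, 3.20 and 2.53 on the AmGSTF1 arrays, without overlap. The log2 ratio of TBL26 to TBL23 was 5.10 to 5.37 in Col0 and 4.04 to 4.60 in AmGSTF1, again without overlap. As TBL25 hardly differed between the groups and TBL26 was chosen with its difference known, these ratios restate the lower TBL26 signal and are a description only. The log2 ratio of CSLA01 to TBL26 was -2.45, -2.82 and -2.27 in Col0 and -3.73, -3.37 and -2.77 in AmGSTF1, and here the groups overlapped.

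Each of the 2 lower genes lost its call in some fits without 1 array, and in those fits most calls over all probe sets were lost too. CSLA01 was not called without Col0 replicate 1 (log2 difference -1.83) or Col0 replicate 3 (-1.99). TBL26 was not called without Col0 replicate 1 (-1.12) or AmGSTF1 replicate 1 (-1.20). The size of the differences moved little, from -2.18 to -1.73 for CSLA01 and from -1.37 to -1.12 for TBL26 over the 6 fits that left out an array. TBL23 stayed uncalled in these fits, at -0.37 to -0.22, and TBL25 uncalled at -0.13 to 0.09. Over the other 11 settings, which changed the pseudocount, filter, normalization or variance model, CSLA01 lay between -2.07 and -1.90 and TBL26 between -1.33 and -1.15, and both were called in all of them. Both genes were chosen with these differences known, so their calls under any setting are a description, and nothing is read from them.

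**Figure D3:**
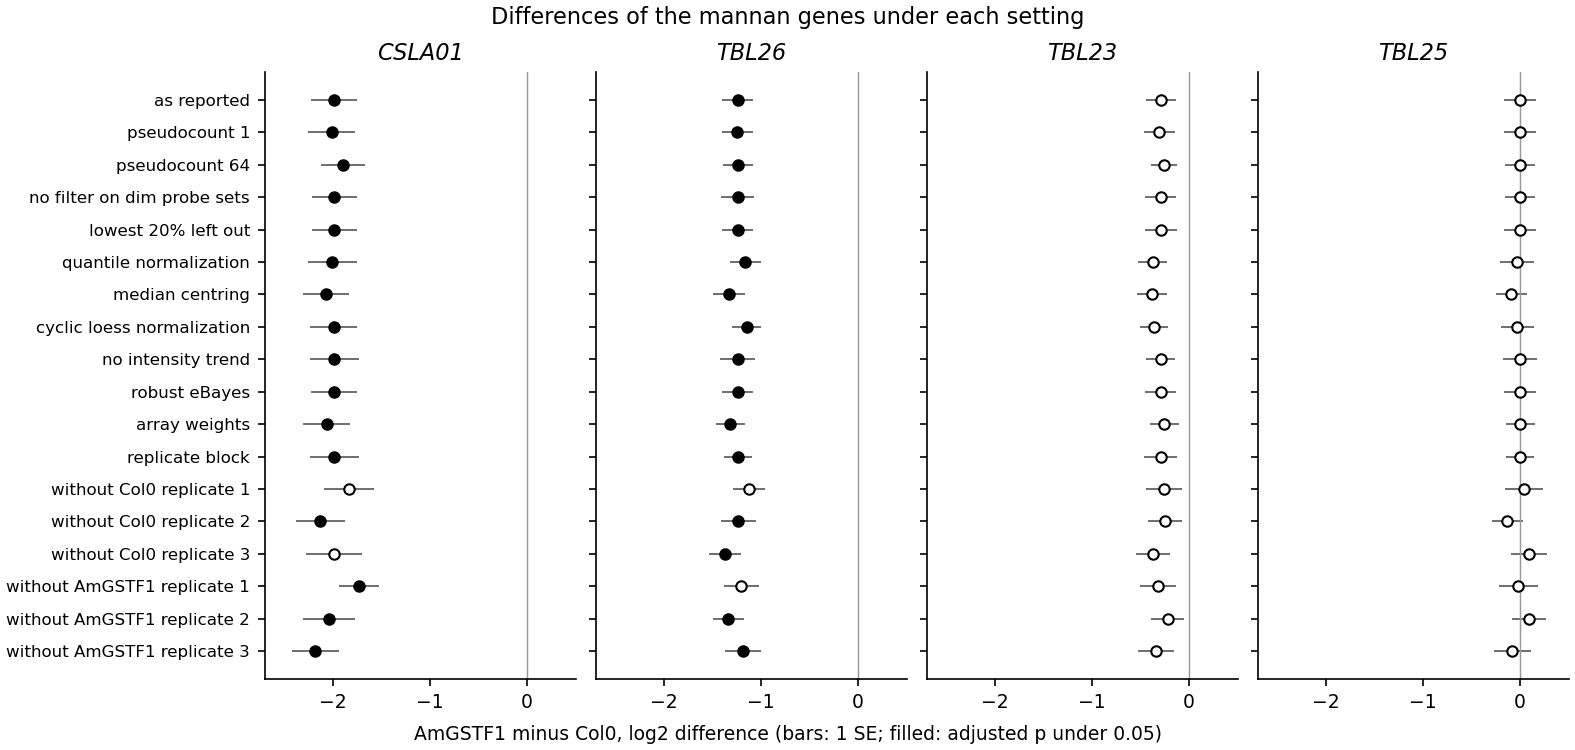
Log2 difference, AmGSTF1 minus Col0, of the 4 mannan genes as reported and under 17 alternative settings; bars are 1 SE and filled circles mark calls at an adjusted p under 0.05. CSLA01 is not called without Col0 replicates 1 or 3 and TBL26 not without Col0 replicate 1 or AmGSTF1 replicate 1, while the positions of the points change little. CSLA01 and TBL26 were chosen with this comparison known, so their calls are a description only.

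Other wall genes were taken from 7 lists with 83 genes. The lists cover other CSLA genes, GDP-mannose, mannan side chains and breakdown, wall acetylation, xyloglucan, xylan and cellulose. Of the 83 genes, 24 could be named on the array and 20 passed the filter on dim signals. In limma over all probe sets 0 of these 20 rose and 1, TBL37, fell, while 4 were higher and 3 lower at an unadjusted p under 0.05. Over all probe sets 12.6% were higher and 10.7% lower at that unadjusted level, 23.3% in all. Their median log2 difference was 0.01, against 0.05 over all probe sets tested. One call in 20 is near the 5.04% called over all probe sets.

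Among the remaining CSLA genes 1 of 6 had a probe set matched to it as a single gene. CSLA03 read 104, 148 and 158 on the Col0 arrays against 195, 194 and 180 on the AmGSTF1 arrays. The AmGSTF1 arrays were thus all above the Col0 arrays, the opposite side from CSLA01. Its log2 difference of 0.45 (95% interval -0.01 to 0.90, limma adjusted p = 0.221) did not pass.

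GDP-mannose is the donor of mannose for the chain. Of 9 listed genes that make or use it, 4 were measured and 0 were called, with a median log2 difference of 0.15 and 1 higher at an unadjusted p under 0.05. PMM, the phosphomannomutase, differed by -0.13 (-0.54 to 0.29) and GME, the GDP-mannose epimerase of ascorbate synthesis, by -0.07 (-0.44 to 0.31). The members with the smallest p were AT2G04650, at 0.53 (0.00 to 1.06, limma adjusted p = 0.211), and AT1G74910, at 0.36 (-0.11 to 0.84, 0.338). AT2G04650 read 59.9 to 84.1 in Col0 against 100.3, 119 and 127 on the AmGSTF1 arrays, close to the dim end.

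The list of side chain and breakdown genes had 1 of 8 members measured, AT2G22900, which was entered in the list as MUCI10. It read 544, 478 and 461 on the Col0 arrays against 408, 237 and 326 on the AmGSTF1 arrays. The groups did not overlap, as with CSLA01, but the log2 difference of -0.62 (95% interval -1.06 to -0.17, limma adjusted p = 0.102) did not pass.

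Wall acetylation, with 28 listed genes other than the mannan group, had 9 tested members, of which 0 rose and 1 fell in limma over all probe sets. TBL37 read 3294, 3530 and 3149 on the Col0 arrays against 2074, 2542 and 2010 on the AmGSTF1 arrays, without overlap. Its log2 difference was -0.59 (95% interval -0.90 to -0.28, limma adjusted p = 0.0419). Its call was lost in each fit without 1 array, at differences of -0.63 to -0.53 and adjusted p of 0.0593 to 0.160, except that without AmGSTF1 replicate 2 (-0.70, 0.0223). Keeping dim probe sets (0.0624), dropping the intensity trend (0.0718) and adding a replicate block (0.0704) ended the call too. TBL35, a relative that acts in xylan acetylation, differed in the other direction by 0.70 (0.18 to 1.23, adjusted p = 0.111). It read 58.6 to 95.1 on Col0 arrays, close to the dim end, and 129.7 to 147 on AmGSTF1 arrays. The TBL35 difference was 0.81 with a pseudocount of 1 and 0.50 with 64. The median of the 9 was 0.21, with a range of -0.59 to 0.70, against 0.05 over all probe sets. At an unadjusted p under 0.05 in limma, 3 of the 9 were higher and 1 lower. Over all probe sets these shares were 12.6% and 10.7%, and no test of these counts was made.

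The TBL family was taken by the gene table's symbols, after the files had been seen. Of 41 genes with such a symbol, 22 could be named on the array and 13 passed the filter on dim signals. AT2G31110, entered in the wall acetylation list as TBL40, has no such symbol and is not among them. It differed by 0.50 (95% interval 0.05 to 0.95, limma adjusted p = 0.176), higher at an unadjusted p under 0.05. TBL26 and TBL37 were the 2 called lower in limma, and 0 were called higher, beside 2.9% and 2.14% over all probe sets. TBL26 is counted here although it was chosen with its difference known, which leaves 1 call in the 10 tested genes outside the mannan group. At an unadjusted p under 0.05 there were 2 lower and 2 higher of the 13, beside 23.3% in either direction over all probe sets. The median log2 difference of the 13 was 0.01, and TBL26 had the lowest value, next to TBL37 and then TBL41 at -0.46 (95% interval -0.96 to 0.05). The remaining 10 lay between -0.29, which is TBL23, and 0.70. TBL32 was read by a probe set marked as shared between transcripts, so that its value of 0.01 may hold signal from a near copy.

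Few listed genes of the other wall polymers had a probe set matched to them as a single gene. Of 13 xylan genes 3 were tested and 0 called in limma, with IRX15-L, which acts in xylan synthesis, at -0.74 (95% interval -1.20 to -0.28, adjusted p = 0.0676) as the member with the smallest p. The Col0 arrays of IRX15-L read 1433, 930 and 1075 and the AmGSTF1 arrays 580, 857 and 604, without overlap. IRX15-L passed without Col0 replicate 2 (-0.87, adjusted p = 0.0408), without AmGSTF1 replicate 2 (-0.91, 0.0277) and with array weights (-0.89, 0.0168). GUT2, a xylan chain enzyme also known as IRX10, differed by -0.29 (-0.79 to 0.21, adjusted p = 0.475). CSLC04, which makes the glucan backbone of xyloglucan, differed by -0.20 (-0.57 to 0.17) as the 1 measured gene of 7. COB, a wall protein needed for oriented cellulose deposition, differed by -0.16 (-0.45 to 0.12) as the 1 measured gene of 12 on the cellulose list.

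**Figure D4:**
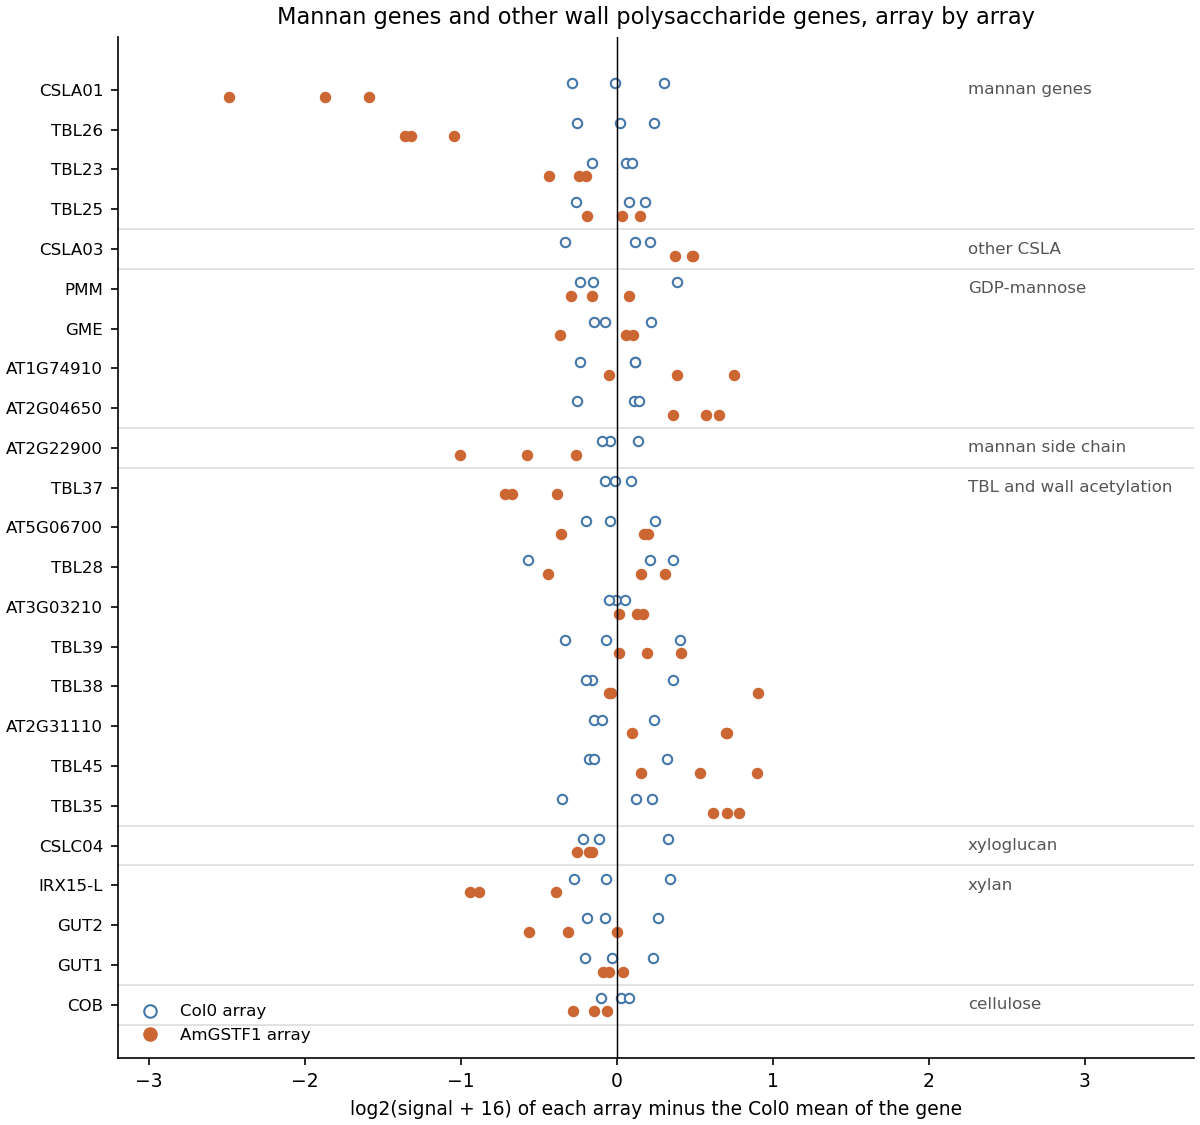
Each array's log2(signal + 16) minus the gene's Col0 mean, for the 4 mannan genes and the 20 tested genes of the other lists; open circles are Col0 arrays and filled circles AmGSTF1 arrays, 3 each. CSLA01 and TBL26 have all AmGSTF1 arrays at least 1 log2 unit below the Col0 mean, which no other gene shown has.

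The profiles most similar to CSLA01 over the 6 arrays, by Pearson's r of log2(signal + 16) among tested probe sets with 1 named gene, were those of AT1G13160 (r = 0.994), AT1G72940, AT2G40360, CCR2 and AT3G03770 (0.991). CCR2, a cinnamoyl-CoA reductase, was the closest of the 5 in size as well, reading 596, 330 and 510 on the Col0 arrays against 82.3, 135 and 181 on the AmGSTF1 arrays. Its arrays fell in the same order as those of CSLA01 within both groups, and so did those of AT1G13160. The 3 profiles most similar to TBL26 were those of AT1G11780 (r = 0.999), AT2G28450 and AT3G07750 (both 0.993). AT1G11780 read 435, 385 and 348 on the Col0 arrays against 228, 261 and 231 on the AmGSTF1 arrays. TBL26 itself ranked 181 among the profiles similar to CSLA01 (r = 0.939), and TBL23 ranked 929 (r = 0.755) and TBL25 2828 (r = 0.119). These r values rest on 6 arrays in 2 groups, so they mostly carry the difference between the groups, and they are descriptions only.

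**Figure D5:**
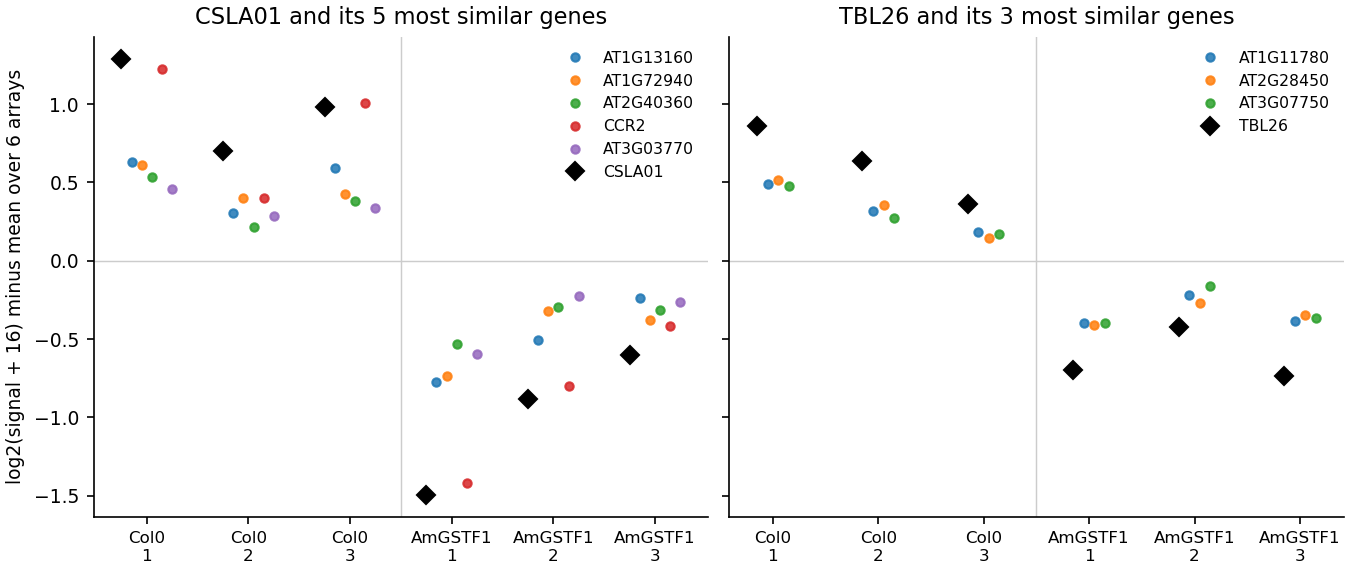
Log2(signal + 16) of each array minus the gene's mean over the 6 arrays, for CSLA01 with its 5 most similar genes and for TBL26 with its 3; black diamonds are CSLA01 and TBL26. In each panel all genes are above their mean on the 3 Col0 arrays and below it on the 3 AmGSTF1 arrays.

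Fewer cells of a type and less RNA per cell cannot be told apart in these whole-leaf samples. Of 8 marker lists with 52 genes, 4 genes in 4 lists had a probe set matched to them as a single gene. The leaf gene RCA, Rubisco activase, was bright on all arrays (15370 to 22829) and differed by -0.17 (95% interval -0.50 to 0.16). The phloem gene SWEET11 was at 2738 to 5236 and differed by 0.08 (-0.43 to 0.60). The root gene PYK10 was at 38.5 to 173, near the dim end, and differed by 0.63 (-0.21 to 1.48). FMA, the guard cell regulator, was at 107 to 127 in Col0 and, near the dim end, at 60.0 to 96.3 in AmGSTF1. Its groups did not overlap, although the difference of -0.55 (-1.09 to -0.02, limma adjusted p = 0.201) did not pass. For xylem cells, whose secondary walls hold glucomannan, 0 of 12 markers were matched to a probe set as a single gene. In 3 further lists no marker was matched either. The part of cell composition in the lower CSLA01 and TBL26 signals was not tested.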

How the data were processed

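What the authors deposited is 1 column of linear MAS5 signal intensities per array, produced in Affymetrix Expression Console 1.1 according to the submitters' processing notes. No detection calls were used, and the number of arrays limits precision. Arrays were grouped by the transgene in their labels, with replicate numbers from the titles. The labels call the replicates biological and say no more on how they were kept apart.

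Signals were taken as log2(signal + 16) without further normalization. Of 22746 probe sets, the 40% with the lowest mean were left out. AmGSTF1 was compared with Col0 by limma 3.58.1 in R 4.3.3 (lmFit, eBayes with an intensity trend, no replicate term), two-sided, with limma's 95% intervals. Data were simulated 10 times for this comparison, with 200 changed probe sets each and independent normal noise for every probe set and array. With 13647 probe sets tested, 6.72%, 70.1% and 97.4% of changes of 0.5, 1 and 2 (log2) were called, and 7.43% of calls were false. Deviations shared by many probe sets of an array were not simulated, so these rates need not hold for the calls reported here.

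Names came from the platform annotation joined to the RefSeq gene table of TAIR10.1, which was used for names, chromosomes and gene order. The annotation gave 1 gene for 13513 probe sets (13436 matched in RefSeq) and several for 503, and 8730 were unnamed here. A gene with several probe sets went by its brightest. Figures were drawn with Python 3.11.15.

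The genes and lists were chosen with earlier results of these data known. Named genes are all measured members, in each list the called genes and the 2 with the smallest p, the 5 profiles most like CSLA01 and 3 most like TBL26, and the markers. The TBL family by symbol, the neighbouring genes, PMM, GME and AT2G31110 (TBL40) were added after the values were seen. Alternatives were other pseudocounts, filters, normalizations and variance models, a replicate block, and fits without 1 array.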

Additional observations from a re-analysis of the deposited data

How the results depend on the processing

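Of the 4 mannan genes, 2 were called lower and 0 higher under all 11 settings that kept the 6 arrays, and 0 to 2 lower and 0 higher when 1 array was left out. These counts are a description only, as the genes were chosen with this comparison known. The number lower was 0 without Col0 replicate 1 and 1 without Col0 replicate 3 or AmGSTF1 replicate 1, with CSLA01 at -2.18 to -1.73, TBL26 at -1.37 to -1.12, TBL23 at -0.37 to -0.22 and TBL25 at -0.13 to 0.09. The sign of TBL25, which is close to 0, turned with array weights (0.0019) and in the fits that left out replicate 1 of Col0 (0.037), replicate 3 of Col0 (0.090) or replicate 2 of AmGSTF1 (0.092).

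Over all probe sets, the 292 calls higher and 396 lower became 123 and 213 when dim probe sets were kept, which adds tests. They became 192 and 237 when the trend was dropped, and 814 and 827 under array weights. Median centring gave 599 lower, and the fits on 5 arrays gave 6 to 603 higher and 5 to 566 lower. Of the other wall genes, 1 was called lower and 0 higher. With no filter or no trend 0 were lower, and with array weights 2 were lower (TBL37 and IRX15-L) and 1 higher. Without 1 array, 0 to 2 were lower and 0 to 1 higher. A replicate block left 40 probe sets higher and 38 lower and 0 other wall genes lower, with CSLA01 and TBL26 called. The deviations from group means of arrays that share a number had correlations of 0.146, -0.027 and -0.050, so the numbers were not taken to pair the arrays. The cause of these changes was not tested.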

Other observations

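Genes that lie next to the mannan genes in the RefSeq table were compared as well, a set added after the files were seen. Of the 4 protein-coding genes on either side of each of the 4 genes, 32 in all, 17 were named on the array and 10 passed the filter on dim signals. In limma over all probe sets 2 of the 10 fell and 0 rose, beside 2.9% lower and 2.14% higher over all probe sets. At an unadjusted p under 0.05, 2 were lower and 1 was higher, beside 10.7% and 12.6% over all probe sets, and no test of these counts was made.

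GT72B1, a glucosyltransferase of foreign compounds, is the gene directly beside TBL26. It read 3522, 3324 and 3518 on the Col0 arrays against 1646, 2410 and 2408 on the AmGSTF1 arrays, a log2 difference of -0.70 (95% interval -1.07 to -0.33, limma adjusted p = 0.0449). The gene on the other side of TBL26, AT4G01090, differed by 0.30 (-0.12 to 0.73, adjusted p = 0.373), and TROL, 3 genes away, by 0.0021 (-0.32 to 0.33).

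AT4G16630, the fourth gene from CSLA01, read 664, 398 and 480 on the Col0 arrays against 302, 274 and 203 on the AmGSTF1 arrays, a difference of -0.93 (-1.42 to -0.44, limma adjusted p = 0.0427). On the other side of CSLA01, AT4G16563 differed by 0.35 (-0.37 to 1.06). AT4G16610, 2 genes from CSLA01, had a probe set too dim to pass the filter and was not tested. The genes directly beside CSLA01 had no probe set matched to them as a single gene.

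Neither call held without replicate 1 or 3 of Col0, or without replicate 1 or 3 of AmGSTF1. GT72B1 was then at -0.68, -0.68, -0.52 and -0.79, and AT4G16630 at -0.73, -0.96, -1.04 and -0.77. Both were also lost with no filter, without the intensity trend and with a replicate block. Beside TBL25, AT1G01440 read 131, 173 and 91.3 on the Col0 arrays against 244, 209 and 224 on the AmGSTF1 arrays, a difference of 0.74 (0.23 to 1.26, adjusted p = 0.0904) that did not pass.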
